A study of Rattus norvegicus with 49 samples.

Results

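Macrophage genes were followed in rat thyroid tissue through 10 genes that mark these cells, Csf1r, Mrc1, Cd163, Adgre1, Cd68, Aif1, Lyz2, C1qa, C1qb and C1qc. A probe belonged to one of them when its RefSeq accession mapped to that symbol, which gave 12 probes among 30367, and 10 genes among the 15154 symbols with a probe on the array. Each gene is described by its probe of highest mean signal over the arrays, and the second probes of Csf1r and Aif1 are given where they differ. The samples were 49 thyroids of male Sprague Dawley rats, each on a one-colour Agilent array, in 13 groups. Of these, 9 groups had received an intravenous injection of 131I, a radioactive iodine isotope that the thyroid takes up.

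Rats injected at 5 weeks of age, called young here, had received 50 kBq and were killed 3, 6 or 9 months later, at 4, 7 or 10 months of age, or had received 0.5, 5 or 500 kBq and were killed after 9 months. Rats injected at 17 weeks, called adult, had received 50 kBq and were killed 3, 6 or 9 months later, at 7, 10 or 13 months of age. Untreated controls were 4, 7, 10 and 13 months old. There were 4 arrays per group, or 3 in the young rats given 5 kBq and in the controls of 7 and of 13 months. Each exposed group was compared with the controls of its age, so the controls of 10 months served 5 comparisons and those of 7 months served 2.

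Macrophages are phagocytes that live in most tissues, where they clear dead cells and pathogens and present antigen. Their survival depends on signalling through the receptor encoded by Csf1r, and they take up debris through scavenger receptors and break it down in lysosomes. In the thyroid they lie between the follicles, next to capillaries and connective tissue.

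Values are log2 of the processed signal minus the 75th percentile of the array. They are relative to that array and probe, so levels are compared between groups and not between genes. Expression was measured in whole tissue, where fewer macrophages and less RNA per macrophage cannot be told apart. A gene was called when its Benjamini-Hochberg adjusted p, taken over 25284 probes, was below 0.01 and its fold change exceeded 1.5.

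Some arrays stood apart from the rest. Array 2 of the young rats 3 months after 50 kBq was dim, with 43.1% of its spots well above background, against 69.2% to 82.5% on the others. Array 3 of that group and array 2 of the controls of 7 months had almost no thyrocyte markers. Thyroglobulin (Tg) was at 0.13 and -0.70 there, against 6.41 to 7.91 on the remaining 46 arrays. Arrays 1 and 2 of the controls of 13 months (r = 0.998) and arrays 1 and 2 of the adult rats 6 months after 50 kBq (r = 0.997) were closer to each other than any of the other 60 pairs within groups. The labels do not say whether they held separate RNA. Several results that rest on these arrays are also given without them, or with the closest pairs averaged. Others are given with all arrays only.

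The probes of the 10 genes were well above background on 48 or 49 of the 49 arrays. Mrc1 and Adgre1 each missed on the dim array alone. Between the lowest and the highest array, the log2 range ran from 2.19 for Lyz2 to 3.41 for Mrc1. The SD between arrays of one group, pooled over the 13 groups, ran from 0.36 for Lyz2 to 0.52 for Cd163. The lowest array for 7 of the genes was array 3 of the controls of 13 months.

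**Figure D1:**
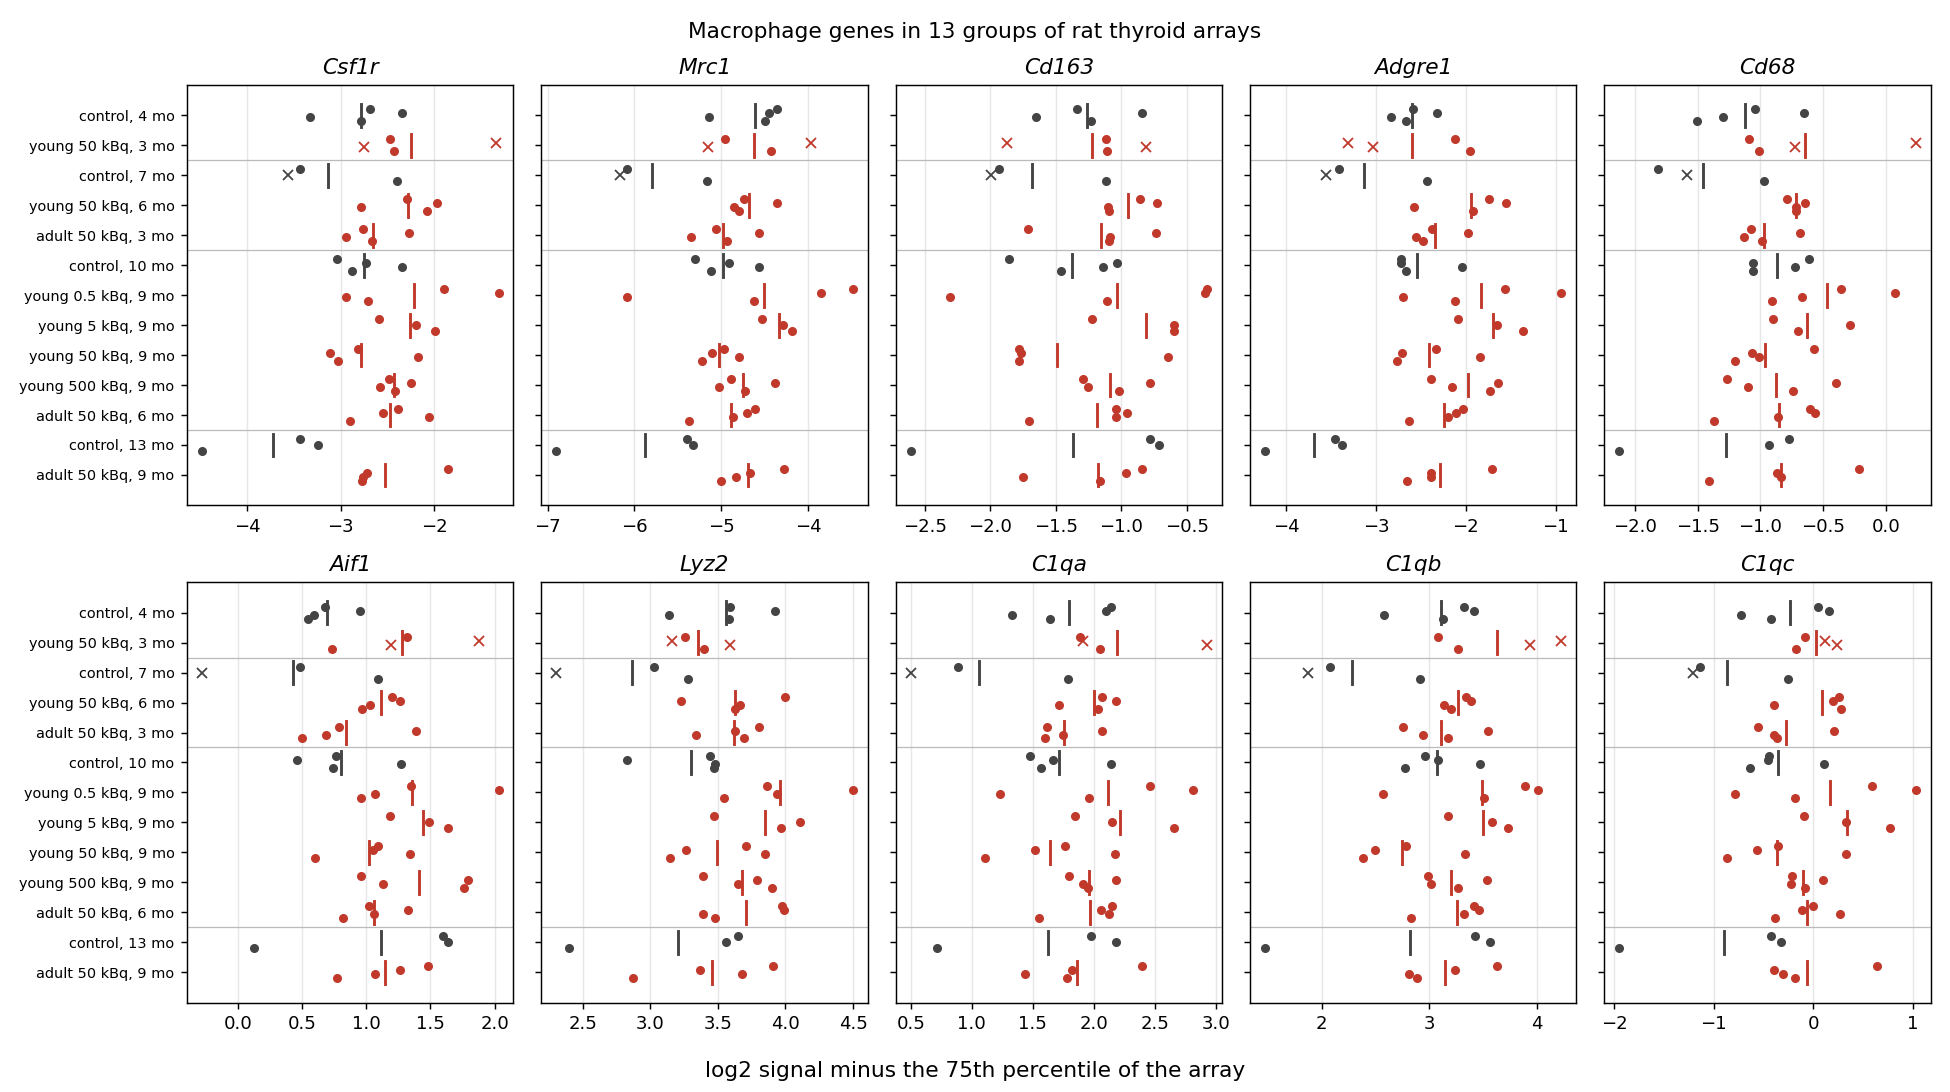
Each panel plots one macrophage gene, with the log2 signal minus the 75th percentile of the array on the horizontal axis and the 13 groups by age on the vertical axis. Points are arrays, crosses are the 3 arrays that stood apart, vertical strokes are group means, controls are grey and exposed groups red. Each panel has its own scale. Controls of 7 and 13 months hold the lowest arrays of most genes, as -4.24 for Adgre1 at 13 months.

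Csf1r encodes the receptor for colony-stimulating factor 1 and interleukin 34, on which macrophages depend. Its group means ran from -3.72 in the controls of 13 months to -2.21 in the young rats 9 months after 0.5 kBq. Controls of 7 months came next to lowest, at -3.13, and the other 11 group means lay between -2.78 and -2.21, a spread close to the pooled SD of 0.46 between arrays. Thus most neighbours in that order did not differ beyond their spread.

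Among the surface receptors, Mrc1 encodes the mannose receptor, Cd163 the scavenger receptor for haemoglobin bound to haptoglobin, and Adgre1 the F4/80 antigen. The group means of Adgre1 ran from -3.69 in the controls of 13 months to -1.70 in the young rats 9 months after 5 kBq, the widest range of group means among the 10 genes (1.99). Those of Mrc1 ran from -5.88 to -4.34 between the same groups. Cd163 ran from -1.68 in the controls of 7 months to -0.81 at 5 kBq.

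Cd68 encodes a lysosomal membrane glycoprotein, Aif1 the actin-binding protein Iba1, and Lyz2 a lysozyme that cuts bacterial cell walls. Each had its lowest group mean in the controls of 7 months, at -1.46, 0.43 and 2.87. The highest group means were -0.47 for Cd68 and 3.96 for Lyz2 at 0.5 kBq, and 1.44 for Aif1 at 5 kBq.

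C1qa, C1qb and C1qc encode the chains of C1q, the recognition unit of the classical complement pathway. Macrophages are a main source of it. The genes lie within 17.7 kb on chr5:154402276-154419933 of the GRCr8 assembly in the order C1qb, C1qc, C1qa. All had their lowest group means in the controls of 7 months (1.06 for C1qa and 2.28 for C1qb), except C1qc, whose lowest mean was -0.90 in the controls of 13 months.

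RefSeq promoter windows were held for 8 of the 10 genes. The letters GAGGAA, the core bound by the myeloid factor PU.1, were searched on both strands in the 250 bases before the start that the RefSeq promoter table uses. For Adgre1, Cd163, Csf1r and Lyz2 that start lies inside the span of the gene in the RefSeq gene table, so part of the window, and most of it for Csf1r, is within the gene. They occurred in 6 of the 8 windows, those of Adgre1, C1qb, Cd68, Csf1r, Lyz2 and Mrc1, against 23.3% of all 33469 windows. The longer form GAGGAAGT was in none of the 8 (2.04% of all), the AP-1 motif TGACTCA in that of Cd68 (4.05%) and the letters TATAAA in none (12.9%). Windows are shown for Adgre1 and Mrc1, which had the widest ranges of group means, and for C1qb, which varied with the other C1q genes. Capitals mark GAGGAA or its reverse complement, at chr9:2329190-2329439 on the plus strand, chr17:82157475-82157724 on the plus strand and chr5:154407828-154408077 on the minus strand, in the order printed. A match is a description of letters and not of binding.
Adgre1: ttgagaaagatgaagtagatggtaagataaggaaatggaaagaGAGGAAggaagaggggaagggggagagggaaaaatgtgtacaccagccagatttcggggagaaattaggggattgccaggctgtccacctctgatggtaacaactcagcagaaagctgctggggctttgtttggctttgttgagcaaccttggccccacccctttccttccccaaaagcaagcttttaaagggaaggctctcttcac
Mrc1: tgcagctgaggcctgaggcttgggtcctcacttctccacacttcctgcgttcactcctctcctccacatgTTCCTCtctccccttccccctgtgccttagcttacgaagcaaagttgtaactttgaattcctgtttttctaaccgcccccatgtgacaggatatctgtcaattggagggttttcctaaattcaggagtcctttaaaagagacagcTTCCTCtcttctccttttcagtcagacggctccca
C1qb: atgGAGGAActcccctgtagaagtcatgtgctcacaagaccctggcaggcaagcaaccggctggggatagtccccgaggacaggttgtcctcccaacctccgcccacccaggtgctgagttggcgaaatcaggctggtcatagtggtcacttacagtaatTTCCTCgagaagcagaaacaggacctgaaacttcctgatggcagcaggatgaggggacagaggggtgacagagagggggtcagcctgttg

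The question of each exposure comparison was whether the tissue of injected rats differed from that of untreated rats of the same age. With all arrays in the model, 0 of the 10 genes were called in any of the 9 exposure comparisons. These called 0.542% of all probes in the adult rats after 9 months, 0.0119% in the young rats 3 and 9 months after 50 kBq and 9 months after 5 kBq, and 0% in the other 5. The log2 differences with all arrays were above 0 for all 10 genes in 6 of the comparisons. In the other 3 they were above 0 for 9, 7 and 3 genes. With the closest pairs averaged, 9 genes lay above 0 in 1 of those 6, the adult rats 6 months after 50 kBq. Comparisons that share control arrays are not independent of each other.

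**Figure D2:**
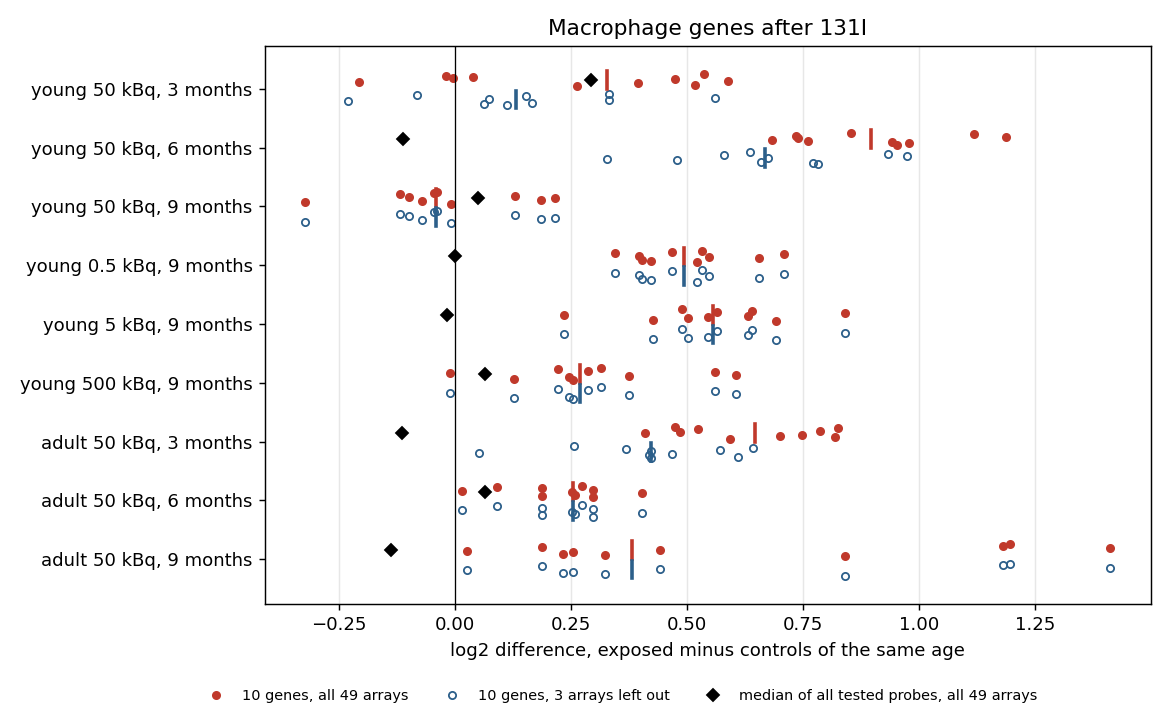
Points give the log2 difference of each of the 10 genes, exposed minus controls of the same age, in 9 comparisons, with strokes at the medians. Filled red points use all 49 arrays, open blue points leave out the 3 arrays that stood apart, and black diamonds give the median of all tested probes. In the young rats 6 months after 50 kBq the points of all 10 genes lie between 0.68 and 1.19 with all arrays.

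In the adult rats 9 months after 50 kBq, Adgre1, Csf1r and Mrc1 stood above the controls of 13 months. Adgre1 was at -1.71, -2.39, -2.39 and -2.65 in the exposed rats and at -3.46, -3.38 and -4.24 in the controls. Every exposed array lay above every control array, and the difference was 1.41 (SE 0.34), a fold of 2.66 with a 95% interval from 1.64 to 4.32. Its adjusted p was 0.0188, so it missed the threshold of 0.01 and passed the looser one of 0.05.

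Csf1r was at -1.85, -2.72, -2.76 and -2.77 in the exposed rats and at -3.44, -3.24 and -4.48 in the controls. These groups did not overlap either, with 1 exposed array well above the other 3 and 1 control array well below the other 2. The difference was 1.20 (SE 0.35, adjusted p = 0.0423). The second Csf1r probe differed by -0.06 (SE 0.37, adjusted p = 0.950) in the same comparison. Over the 49 arrays the deviations of the 2 probes from their group means correlated at r = 0.04. The Csf1r result here, and the Csf1r values in all other comparisons and in the correlations, thus rest on 1 of its probes.

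Mrc1 was at -4.27, -4.67, -4.83 and -5.01 in the exposed rats and at -5.40, -5.33 and -6.90 in the controls. The groups did not overlap, and the difference was 1.18 (SE 0.38, adjusted p = 0.0616). The exact permutation test gave p = 0.0571 for each of these 3 genes, the smallest that 4 against 3 arrays allow. Of all probes, 9.73% had every exposed array above every control array in this comparison, and 2.06% were higher at an adjusted p under 0.05 with a 1.5-fold change, as were Adgre1 and Csf1r.

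The remaining 7 genes differed by 0.03 (Aif1) to 0.84 (C1qc, SE 0.35, adjusted p = 0.150). The complement genes C1qa and C1qb were at 0.23 and 0.32, and Cd163 at 0.19, each with an SE of 0.34 to 0.39. All 10 differences lay above 0, where 40.6% of all probes did, and 4 of the genes were higher at an unadjusted p under 0.05, where 9.97% of all probes were. The median over the 10 genes was 0.38, against -0.14 over all probes.

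Leaving out the 3 arrays that stood apart, none of which is in these 2 groups, kept the differences and narrowed the shared spread. Adgre1 (adjusted p = 0.00187) and Csf1r (adjusted p = 0.00911) were then called higher, in a fit that called 8.98% of all probes in this comparison. Mrc1 reached an adjusted p of 0.0224. With the closest pairs averaged instead, the differences were 1.55 for Adgre1 and 1.39 for Csf1r and 0 of the 10 genes were called, and with both changes together Adgre1 alone was called (adjusted p = 0.00767), beside 2.48% of all probes.

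Much of the median over the 10 genes rested on array 3 of the controls of 13 months. Without it that median was -0.06, with 5 genes above 0. Adgre1 still differed by 1.14 (adjusted p = 0.0685) and Mrc1 by 0.67 (adjusted p = 0.344). The controls left were the pair with r = 0.998, for which the labels do not say whether they held separate RNA. The summed level of 5 fibroblast markers was also low on array 3, at 3.77. It was at 4.94 and 4.96 on the other 2 controls and at 4.61 to 5.74 in the exposed rats. All 3 controls had low skeletal muscle markers, at 5.87 to 6.08, against 8.88 for the median exposed array, while 1 exposed array was lower still, at -0.06. Every control lay above every exposed array for the markers of thyrocytes (8.22 to 8.53 against 7.68 to 8.09), endothelium (2.98 to 3.67 against 2.39 to 2.84), C cells (8.05 to 8.37 against 6.94 to 7.79) and parathyroid (7.25 to 7.39 against 2.45 to 6.95). The part of these tissues in the result was not tested. In scan 1, the scan date that held 2 exposed and 2 control arrays, the median over the 10 genes was 0.85, with 10 of 10 above 0. Array 3 was 1 of those 2 controls, so this value rests on it too.

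In the young rats 6 months after 50 kBq all 10 genes lay higher than in the controls of 7 months, by 0.68 (Aif1) to 1.19 (Adgre1). Of all probes 37.5% lay above 0. The median was 0.90, against -0.11 over all probes, but none passed the adjusted threshold (adjusted p 0.463 to 0.775). At an unadjusted p under 0.05, 9 of the 10 genes were higher, where 3.24% of all probes were.

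Mrc1 was at -4.73, -4.36, -4.86 and -4.79 in these rats and at -6.08, -6.17 and -5.16 in the controls. C1qb was at 3.34, 3.38, 3.14 and 3.20, against 2.07, 1.87 and 2.91. Cd68 was at -0.79, -0.65, -0.72 and -0.72, against -1.81, -1.58 and -0.97. These genes and Cd163 had every exposed array above every control array, as had 1.61% of all probes, and for each the exact permutation p was 0.0571, the smallest possible here. The exposed arrays lay close together, while 2 of the 3 controls were low and array 3 was near the exposed range.

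One of the 2 low controls was the array without thyrocyte markers. When the 3 arrays that stood apart were left out, the comparison was 4 against 2 arrays. The median over the 10 genes was 0.67, against -0.09 over all probes, with 10 above 0. At an unadjusted p under 0.05, 3 genes were higher, where 2.55% of all probes were. Adgre1 was at 0.97 (SE 0.36, adjusted p = 0.338). The other low control had fibroblast markers at 4.12, near the 4.18 of the array without thyrocyte markers, against 5.57 for the third control and 5.43 to 5.92 in the exposed rats. Whether that tissue makeup had a part in the difference was not tested. No scan date held arrays of both groups, so no value within a scan could be given.

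The adult rats 3 months after 50 kBq were set against the same controls of 7 months. All 10 genes lay above 0, where 35.7% of all probes did. They ran from 0.41 (Aif1) to 0.83 (Mrc1), with a median of 0.65, and 5 were higher at an unadjusted p under 0.05, where 1.82% of all probes were. Lyz2 was at 3.81, 3.63, 3.34 and 3.70 in the exposed rats and at 3.02, 2.30 and 3.28 in the controls. It was the 1 gene without overlap, as in 0.443% of all probes. Leaving out the 3 arrays that stood apart gave a median of 0.42, with an adjusted p of at least 0.688 for each gene. Within scan 2, with 2 arrays of each group, the median was 0.52.

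In young rats 9 months after injection, the genes were followed over 4 activities against the controls of 10 months. For the 0.5 kBq group the median log2 difference was 0.49, and all 10 genes lay above 0, where 49.9% of all probes did. For 5 kBq it was 0.56, with 10 genes above 0 (47.8% of all probes), for 50 kBq -0.04, with 3 genes (58.7%), and for 500 kBq 0.27, with 9 genes (61.3%). No gene passed an adjusted p of 0.05 at any activity. At an unadjusted p under 0.05 the counts, from the lowest activity to the highest, were 2, 1, 0 and 1, where 0.431%, 1.07%, 0.993% and 1.02% of all probes were higher. Over the 4 activities the slope on log10 of the activity was below 0 for all 10 genes, from -0.16 (C1qb and Cd68) to -0.02 (Aif1), with unadjusted p from 0.0933 to 0.794 in limma. Over all probes 64.8% had a slope above 0, and 0 were called. The median slope over the 10 genes was -0.12, and it was -0.05, with 1 gene above 0, without array 2 of the 0.5 kBq group.

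Lyz2 had every array at 0.5 kBq, at 3.86, 4.50, 3.94 and 3.55, above every control, at 3.44, 2.83, 3.48 and 3.47. The difference was 0.66 (SE 0.26) with an exact permutation p of 0.0286, the smallest that 4 against 4 arrays allow. Of all probes 0.581% showed no overlap in that direction. Adgre1 at 5 kBq was at -2.08, -1.65 and -1.37, against -2.72, -2.73, -2.05 and -2.67, a difference of 0.84 (SE 0.34) with 1 control inside the exposed range. Mrc1 was the gene without overlap at 5 kBq, where 8.82% of all probes were.

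Among these 4 activities the 0.5 kBq group was the most uneven one, with an SD of 0.65 between arrays in the mean of the 10 genes, against 0.25 to 0.36. The mean of the 10 genes, relative to the mean over all arrays, was 1.06 on array 2, the highest of the 49, and -0.41 on array 3. Fibroblast markers were at 4.36 on that array 3 and at 5.63 to 5.80 on the other 3. The part of this tissue was not tested. The median over the 10 genes, 0.49 with all arrays, was 0.24 without array 2 and 0.75 without array 3. Within scan 1, with 3 arrays of each group, the median over the genes was 0.72, and within scan 3, with 1 array each, it was -0.13. At 5 kBq the medians were 0.83 and 0.44 within scans 1 and 3, with 1 exposed array in each, against 3 controls and 1. At 50 kBq they were -0.01 and -0.26, with 2 exposed arrays in each, against the same controls.

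In the remaining comparisons the differences were small or rested on arrays that stood apart. In the young rats 3 months after 50 kBq, 7 genes lay above 0, as did 64.7% of all probes, with a median of 0.33 against 0.29 over all probes. Aif1 differed by 0.59 (SE 0.29, adjusted p = 0.133). With the 3 arrays that stood apart left out, 2 exposed arrays remained and the median was 0.13. In the adult rats 6 months after 50 kBq all 10 genes lay above 0, where 61.9% of all probes did, from 0.01 (Cd68) to 0.40 (Lyz2). The median was 0.26. With the closest pairs averaged, 9 genes lay above 0, from -0.07 to 0.31, with a median of 0.21. Within scan 1, with 1 exposed and 3 control arrays, the median was 0.50. Within scan 3, with 2 exposed arrays and 1 control, it was -0.33.

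Whether exposure as such went with these genes was examined with one coefficient for exposure and age as a factor, over 35 exposed and 14 unexposed rats. This comparison was chosen after the data had been seen. All 10 genes lay above 0, from 0.28 (Cd163) to 0.67 (Adgre1, SE 0.16, adjusted p = 0.318), with a median of 0.43 against 0.03 over all probes. At an unadjusted p under 0.05, 9 genes were higher, where 4.89% of all probes were, and 0 probes passed an adjusted p of 0.05.

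In the same model without the 3 arrays that stood apart the median was 0.29, and 7 genes were higher at an unadjusted p under 0.05, where 10.3% of all probes were. Adgre1 differed by 0.76 (SE 0.16, adjusted p = 0.0425). It was 1 of 35 probes with an adjusted p under 0.05, none of which passed both thresholds of a call. Csf1r followed, at 0.53 (SE 0.16, adjusted p = 0.0833).

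**Figure D3:**
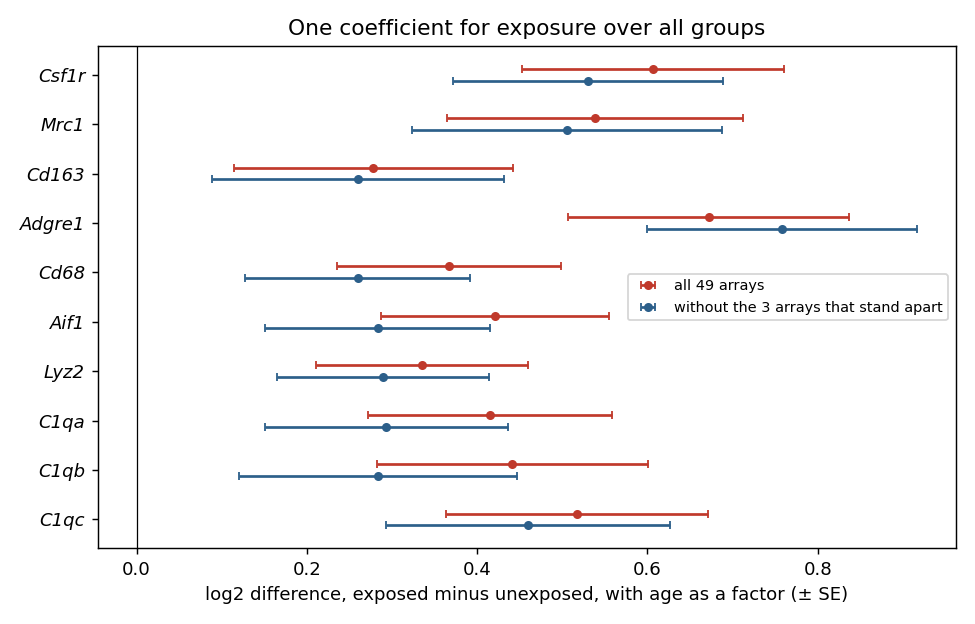
Points give, for each macrophage gene, the log2 difference between exposed and unexposed thyroids with age as a factor, and bars the standard error, for all 49 arrays in red and without the 3 arrays that stood apart in blue. All points lie above 0, where 56.1% and 43.4% of all probes did. Adgre1 is the highest in both sets, at 0.67 and 0.76.

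Age was the other variable of the design. In the controls of 13 months, Mrc1 was at -5.40, -5.33 and -6.90, against -4.35, -4.45, -5.14 and -4.49 in those of 4 months, a difference of -1.27 (SE 0.38, adjusted p = 0.0204). Adgre1 was at -3.46, -3.38 and -4.24, against -2.59, -2.32, -2.83 and -2.67, a difference of -1.09 (SE 0.34, adjusted p = 0.0249). Neither gene had overlapping groups, as was true of 12.8% of all probes in that direction, and 7.4% of all probes were lower at an adjusted p under 0.05 with a 1.5-fold change.

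Both genes thus passed 0.05 and missed 0.01. Both were called lower without the 3 arrays that stood apart (adjusted p = 0.00822 for Mrc1 and 0.00681 for Adgre1), in a fit that called 21.9% of all probes. With the closest pairs averaged, 0 of the 10 genes were called and the differences were -1.52 for Mrc1 and -1.23 for Adgre1. Csf1r differed by -0.94 (SE 0.35, adjusted p = 0.0567), while Cd163 (-0.10), C1qa (-0.17) and Cd68 (-0.15) lay near 0 and Aif1 was the 1 gene above it, at 0.43 (SE 0.31), where 59.9% of all probes lay above 0. At an unadjusted p under 0.05, 3 genes were lower, where 13.6% of all probes were. Without array 3 of the controls of 13 months the median over the 10 genes moved from -0.32 to 0.16. The controls of 13 months were then the pair with r = 0.998 alone. Other tissue markers also separated the controls of 13 and 4 months without overlap. In those of 13 months fibroblast markers were lower (3.77 to 4.96 against 5.59 to 5.89), as were those of skeletal muscle (5.87 to 6.08 against 8.20 to 9.19), while those of thyrocytes (8.22 to 8.53 against 7.28 to 8.02), endothelium (2.98 to 3.67 against 2.29 to 2.90), C cells (8.05 to 8.37 against 4.68 to 6.72) and parathyroid (7.25 to 7.39 against 6.36 to 6.83) were higher. Their part was not tested. The controls of 13 months are the same arrays that the adult rats 9 months after injection were set against.

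Controls of 7 months lay below those of 4 months for all 10 genes, from -1.19 (Mrc1, adjusted p = 0.393) to -0.26 (Aif1), and 4 of the genes were lower at an unadjusted p under 0.05, where 3.9% of all probes were. Of all probes 62% lay above 0, and 0.00396% were called. Every array of the controls of 7 months was below every one of 4 months for Mrc1, as in 1.45% of all probes. Without the array lacking thyrocyte markers the median moved from -0.58 to -0.36, and with array weights it was -0.04, with 5 genes above 0. Fibroblast markers were at 4.12, 4.18 and 5.57 in the controls of 7 months and at 5.59 to 5.89 in those of 4 months, and their part was not tested. Controls of 10 months differed from those of 4 months by -0.37 (Mrc1) to 0.26 (Cd68), with 4 genes above 0, where 45.4% of all probes lay, and 0.0119% of all probes were called.

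The difference between young and adult rats in their response to 50 kBq was tested directly. After 9 months, Adgre1 (-1.28, SE 0.47, adjusted p = 0.246), Csf1r (-1.23, SE 0.48, adjusted p = 0.267) and Mrc1 (-1.23, SE 0.52, adjusted p = 0.301) were less different from their controls in young than in adult rats, and none passed the threshold. At an unadjusted p under 0.05 these 3 genes were lower, where 5.19% of all probes were. Of the 10 differences 1 was above 0 there, where 61.3% of all probes lay, and the median was -0.59. Without array 3 of the controls of 13 months it was -0.04, with 5 above 0. The controls of that age were then the pair with r = 0.998 alone. At 6 months all 10 were above 0 (median 0.67, 36.8% of all probes) and at 3 months 2 of 10 (median -0.32, 66.5% of all probes), again with no gene past an adjusted p of 0.05. Without the control array of 7 months that lacked thyrocyte markers the medians were 0.44 at 6 months and -0.13 at 3 months, and with array weights they were -0.04, with 4 above 0 at each time. None of these 3 tests called any probe with all arrays. Without the 3 arrays that stood apart, the test at 9 months called 2.28% of all probes and 0 of the 10 genes. With the closest pairs averaged its median over the 10 genes was -0.87, with 0 above 0.

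Within groups the 10 genes varied together from rat to rat. Over the 49 arrays, with group means removed, all 45 pairs had a Pearson's r above 0, from 0.44 to 0.93 with a median of 0.72. Arrays were permuted within groups, and all 45 pairs had an adjusted p under 0.05 for both Pearson's r and Spearman's rho. The values of one array share its labelling and scaling. Over 7275 probes well above background on all arrays, the median r with the mean of the 10 genes was 0.03.

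The C1q chains were among the closest pairs. C1qa and C1qc had r = 0.926 (rho 0.899), C1qb and C1qc 0.892 (rho 0.880) and C1qa and C1qb 0.874 (rho 0.858), each with a permutation p of 1e-05, the smallest that 100000 resamples give, and adjusted p of 2.4e-05 for r and 1.7e-05 for rho. Without the 2 arrays farthest from the median of the first gene, r was 0.902 for C1qa with C1qc. Over all arrays Csf1r and C1qc were at 0.877, just above C1qa and C1qb. The loosest pairs were Cd163 with Cd68 (0.437), Adgre1 with Cd68 (0.441) and Mrc1 with Lyz2 (0.446).

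When the 3 arrays that stood apart were left out, the lowest r was 0.47 and the median 0.80. Within scan dates the median was 0.76 over 24 arrays, 0.67 over 14 and 0.83 over 11, and all 45 pairs were above 0 in each. Leaving out for each pair the 2 arrays farthest from the median of the first gene gave a lowest r of 0.34 and a median of 0.68.

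**Figure D4:**
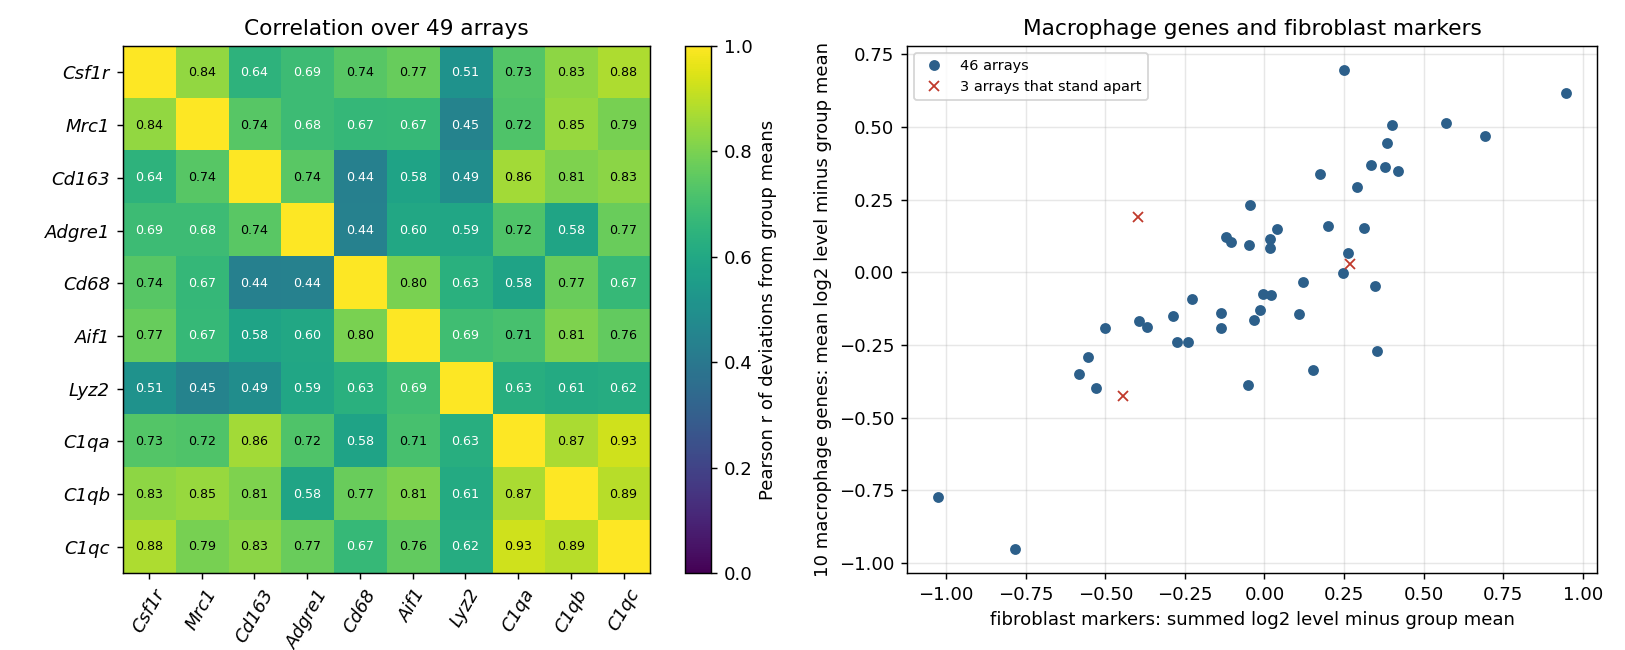
The left panel shows Pearson's r between the deviations of each pair of macrophage genes from their group means over 49 arrays, from 0.44 to 0.93. The right panel plots, for each array, the mean deviation of the 10 genes from their group means in log2 against that of the summed level of 5 fibroblast markers (r = 0.80), with the 3 arrays that stood apart as crosses.

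Markers of other cells moved with them. The summed level of the fibroblast markers Col1a1, Col1a2, Dcn, Pdgfra and Lum, each with a probe, correlated with the mean of the 10 genes at r = 0.80 over the 49 arrays, 0.82 without the 3 that stood apart, and 0.86, 0.67 and 0.80 within scans 1, 2 and 3. The 5 mast cell markers did so at 0.68, and 0.66 without the 3 arrays. The 5 T cell markers had r = 0.39, and the other 13 lists, thyrocytes among them (0.18), ran from -0.19 to 0.35. Of the 5 fibroblast markers 4 were well above background on all 49 arrays, and of the 5 mast cell markers 2. The part of these cells in the variation of the macrophage genes was not tested.

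Outside the 10 genes, the 5 symbols whose deviations most resembled their mean over the 49 arrays were Folr2 (r = 0.933), Fcna (0.916), Fcmr (0.910), Ccl6 (0.908) and Serping1 (0.880), of 6477 ranked. Folr2 encodes a folate receptor, Fcna a ficolin that recognises microbial sugars, Fcmr a receptor for immunoglobulin M, Ccl6 a chemokine and Serping1 the inhibitor of the C1 complex. Without the 3 arrays that stood apart they ranked 1, 3, 4, 5 and 10.

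A wider list of 68 genes of macrophage biology, 61 of them tested, was examined by role. With all arrays 0 were called in the 9 exposure comparisons, and 1 was called between control ages, lower at 13 than at 4 months, where 5.06% of all probes were called. In the young rats 6 months after 50 kBq, 45 of the 61 lay above 0, with a median of 0.62, and 23 were higher at an unadjusted p under 0.05, where 37.5% of all probes lay above 0 and 3.24% were higher. In the adult rats 3 months after injection, set against the same controls, it was 40 of 61, with a median of 0.42, where 35.7% of all probes lay above 0. Those controls include the array without thyrocyte markers, and these counts and medians of the wider list are given with it only. Without the 3 arrays that stood apart, the median over the 10 genes in the young rats fell from 0.90 to 0.67. Of those 10, the number higher at an unadjusted p under 0.05 fell from 9 to 3. The share of all probes fell from 3.24% to 2.55%.

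By role, the 8 Fc receptors and adaptors that carry their signal had a median of 0.88 in the young rats 6 months after 50 kBq, with 8 of 8 above 0. The 9 leukocyte surface proteins (0.86), the 10 complement genes (0.79) and the 9 scavenger receptors (0.62) had 7, 8 and 8 above 0. The 9 inflammatory mediators had a median near 0, with 4 above it. These role values, too, are given only with the control array without thyrocyte markers. In the adult rats 9 months after injection 10 of 10 complement genes lay above 0, with a median of 0.33, where 40.6% of all probes lay above 0. The inhibitory Fc receptor gene Fcgr2b differed by 1.00 (SE 0.31, adjusted p = 0.0487). It was 1 of 2 of the 61 listed genes past 0.05 with a 1.5-fold change, where 4.56% of all probes were in either direction.

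In the young rats 9 months after 50 kBq the largest differences within each role were small against their errors, each with an adjusted p near 1 and an unadjusted p in limma of at least 0.0672. Il10, an anti-inflammatory cytokine, differed by 1.54 (SE 1.37), Il1b, a pro-inflammatory one, by 0.64 (SE 0.58), and Csf2rb, the shared receptor chain for interleukin 3 and related cytokines, by -0.99 (SE 1.05). The chemokine receptor genes Cx3cr1 and Ccr2 differed by 0.80 (SE 0.48) and 0.75 (SE 0.46). Siglec1, a sialic acid receptor of macrophages, and the fatty acid scavenger receptor gene Cd36 differed by -0.55 (SE 0.40) and -0.27 (SE 0.52). The kinase gene Syk and Fcgr2b were at 0.42 (SE 0.42) and 0.41 (SE 0.28), the lysosomal protease genes Lgmn and Ctss at 0.28 (SE 0.36) and 0.19 (SE 0.30), and the complement gene C4a at -0.33 (SE 0.34).

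Without the 3 arrays that stood apart, 3 of the listed genes were called in the adult rats 9 months after injection, beside 8.98% of all probes. Among them Fcgr2b was higher (1.00, SE 0.27), and Irf8, a transcription factor of monocytes and dendritic cells, was lower (-1.84, SE 0.38). In the same fit, which called 21.9% of all probes between controls of 13 and 4 months, 8 of the listed genes were called there. Of these, Irf8 (2.07), the efferocytosis receptor gene Mertk (1.55), Cx3cr1 (group means 0.94 against -0.56) and the NADPH oxidase subunit gene Cyba (0.82) were higher with age, and Fcgr2b (-0.88), the lipopolysaccharide receptor gene Cd14 (-0.83) and the nitric oxide synthase gene Nos2 (-1.46) were lower. With the closest pairs averaged as well, neither Irf8 (adjusted p = 0.0138) nor Fcgr2b (adjusted p = 0.0123) was called in the adult rats. Between the controls, of the genes named here, Irf8 (adjusted p = 0.00292) and Mertk (adjusted p = 0.00996) alone stayed called, beside 10.1% of all probes. These 2 comparisons share the controls of 13 months. Apart from Cx3cr1 and Fcgr2b, the genes of this paragraph were named after their values were seen.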

How the data were processed

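Total RNA from frozen thyroid was labelled in 1 colour and hybridised to Agilent 8x60K rat expression arrays. The authors deposited one Feature Extraction file per array, whose processed signal is a background-subtracted intensity that was not scaled between arrays, with marks of 0 or 1, in other units, for spots well above background, saturated or outlying. The labels name Partek, and the study's methods name Nexus Expression 3.0 with cut-offs on fold change and adjusted p. Which normalization and test were applied is not given in these sources. A deposited table of fold changes holds the authors' own comparisons and was not used.

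Outlier and control spots were left out, log2 intensity minus the 75th percentile of the array was averaged per probe, and a probe was kept if well above background on 3 arrays or more (25284 of 30367). limma 3.58.1 in R 4.3.3 fitted 1 mean per group over all arrays (prior degrees of freedom 2.22). Exact permutation tests, two-sided, and correlations were run in Python 3.11.15 with scipy 1.17.1, pandas 2.3.3 and numpy 2.4.6, and plots were drawn with matplotlib 3.10.9. The code was tested on simulated data. The 10 genes, the wider list and the cell type markers were chosen with earlier results of these data known. Named were the 10 genes, listed genes called in any of 16 contrasts, up to 2 genes per role with the largest difference 9 months after 50 kBq in young rats, and the 5 symbols most like the mean of the 10. Values of 3 other genes are not reported here. Marker lists covered T, B, mast, dendritic, erythroid, thyroid C and parathyroid cells, neutrophils, adipocytes, endothelium, fibroblasts, thyrocytes, skeletal muscle, squamous epithelium, cartilage and thymus. The number of arrays per group limits the precision, and p-values measure the spread between arrays.

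Alternatives covered normalization, background correction, the filter on dim probes, slide, scan date and replicate number as blocks, array weights, averaged probes, the threshold, the arrays in the fit and each array left out. Deviations of arrays with the same replicate number correlated above 0.1 in every pair only for the young rats 6 months after 50 kBq (3 pairs, 0.14 to 0.33), and in 14 of 42 pairs over all comparisons, a hint from the data and not from the labels.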

Additional observations from a re-analysis of the deposited data

Results flagged for a closer look

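In 100 sets of one gene in one group of 4 arrays, 8 had a single array far from the other 3 by Dixon's criterion, where chance gives about 1 in 20. Csf1r in the adult rats 9 months after 50 kBq was at -1.85 on array 1, against -2.77 to -2.72 on the others. Cd163 was at -0.64 on array 3 of the young rats 9 months after 50 kBq (others -1.78 to -1.77) and at -1.71 on array 4 of the adult rats 6 months after 50 kBq (others -1.04 to -0.95). On that last array C1qa was low too, at 1.55 (others 2.06 to 2.15). In the controls of 10 months Adgre1 was at -2.05 on array 3 (others -2.73 to -2.67) and Lyz2 at 2.83 on array 2 (others 3.44 to 3.48). C1qa was at 2.93 on array 3 of the young rats 3 months after 50 kBq, one of the arrays without thyrocyte markers (others 1.88 to 2.05), and C1qc at -0.39 on array 3 of the young rats 6 months after 50 kBq (others 0.20 to 0.28).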

How the results depend on the processing

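Of 4040 values of a gene under an alternative setting, 15 were called by the threshold of that setting, where none was called with all arrays. These include 2 values in the adult rats after 9 months and 2 between controls of 13 and 4 months that were unchanged and passed only the looser 0.05. Of the others, 3870 moved by less than 1 standard error and 155 by more. Calls over all probes in the 9 exposure comparisons together, 146 with all arrays, were unsteady. They numbered 19 with median scaling, 36 with normexp, 19 with no filter, 313 with slide and 11 with scan date as a block, 15 with the replicate block, 8902 with array weights, 5273 at an adjusted p below 0.05, 4 with the groups of each comparison alone, 2281 without the 3 arrays that stood apart, 6 with the closest pairs averaged and 643 with both, and 6 to 4373 with each array left out. The highest counts, 4373, 3952 and 1138, came without arrays 1, 4 and 2 of the young rats 3 months after 50 kBq, and 898 without array 3 of the adult rats after 9 months. Of the 10 genes, the number called in the adult rats 9 months after 50 kBq was 0 with all arrays, 3 with weights, 2 at 0.05, 2 without the 3 arrays, 1 with both changes, and 0 to 1 with each array left out. Between controls of 13 and 4 months it was 0, then 1 (Aif1, higher), 2 and 2 under the same first 3 alternatives, and 0 to 1 with each array left out. With single arrays left out the 1 was Adgre1 in the first and Mrc1 in the second comparison, both without the dim array. The median over the 10 genes 6 months after 50 kBq in young rats was 0.95 with the replicate block and 0.33 with array weights. With weights it was -0.01 in the adult rats after 9 months and 0.08 between controls of 13 and 4 months. Arrays 1 and 2 of the controls of 13 months, the pair with r = 0.998, had weights of 5.87 and 2.38. Array 3 had 0.30, so it counted for little in these 2 medians. The weights were estimated gene by gene, since the default did not converge. Leaving out the 3 arrays and averaging the closest pairs were chosen after seeing the data. The replicate block changed no call of the 10 genes.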
